A study of Mus musculus with 4 samples.

Results

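The Mmp13/Cryba2 cells were chondrocyte-gated cells, from epiphyses of mice with floxed Sox9, that carried the collagenase gene Mmp13, the crystallin gene Cryba2, or both. They were chosen by their own expression, in the 2 libraries of Sox9fl:fl AcanCreERT2/+ mice. A cell had to have 500 or more genes, at most 15% mitochondrial UMIs (unique molecular identifiers, each a counted transcript) and no UMI of Ptprc, the leukocyte antigen CD45. Per 10,000 UMIs of the cell it had to hold 50 or more of Col2a1, under 10 of Prg4, a sum under 25 of Bglap, Ifitm5 and Dmp1, and a sum of 15 or more of Mmp13 and Cryba2. The rule gave 371 of 17371 kept mutant cells and of 30952 kept cells in all, 260 from day 13 and 111 from day 19. Because levels of Mmp13, Cryba2, Col2a1, Prg4, Bglap, Ifitm5, Dmp1 and Ptprc chose the cells, those levels are given as a description. So are all other genes of the same cells, and no test was made on any of them.

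The libraries came from tibial and femur epiphyses, the bone ends with joint cartilage, growth plate and marrow, of mutant mice and of wild-type (WT) mice at postnatal days 13 and 19. The mutants had both Sox9 alleles floxed and 1 AcanCreERT2 allele, so that the tamoxifen-dependent recombinase is made in cells that express Acan. Nothing in the sources used here gives the floxed exons, the tamoxifen schedule, the strain or whether animals were pooled. Each combination of genotype and age was 1 library, and intervals below are exact 95% intervals that cover counting error only, not the spread between mice. Because fewer cells of a type in the suspension and a lower yield from dissociation both lower a share, the shares describe the libraries.

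Mmp13 is a secreted collagenase that cuts type II collagen. In the growth plate it is made by the last hypertrophic chondrocytes and by osteoblasts at the border with bone, and in osteoarthritic cartilage by chondrocytes that break down their own matrix. RUNX2 and factors that bind AP-1 sites are known to act on the Mmp13 promoter, and Sox9 drives the genes of cartilage matrix. Cryba2 encodes a beta-crystallin, a protein family best known from the lens. Htra1 is a secreted serine protease raised in osteoarthritic joints, Olfml2b encodes a secreted olfactomedin-domain protein, and Podnl1 a small leucine-rich repeat protein of the matrix.

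The RefSeq promoters of the genes that define the cells are shown because the pair share motif letters of factors known to act on Mmp13. Mmp13 lies on chromosome 9, plus strand, at chr9:7272514-7283331, and Cryba2 on chromosome 1, minus strand, at chr1:74889934-74893143 (GENCODE M21, GRCm38). Each window holds 250 bases before the annotated start and 50 after, from GRCm38.p6, at chr9:7272264-7272563 for Mmp13 and chr1:74893094-74893393 for Cryba2, read 5′ to 3′ on the gene's strand. Capitals mark matches to an AP-1 motif (TGANTCA) and to a RUNX motif (TGTGGT, here on the other strand).
Mmp13: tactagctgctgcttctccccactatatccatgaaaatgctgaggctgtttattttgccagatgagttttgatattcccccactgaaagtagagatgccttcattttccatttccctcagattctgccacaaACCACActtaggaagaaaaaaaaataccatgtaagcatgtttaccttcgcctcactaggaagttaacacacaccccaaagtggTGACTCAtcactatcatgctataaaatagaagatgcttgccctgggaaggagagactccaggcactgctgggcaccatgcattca
Cryba2: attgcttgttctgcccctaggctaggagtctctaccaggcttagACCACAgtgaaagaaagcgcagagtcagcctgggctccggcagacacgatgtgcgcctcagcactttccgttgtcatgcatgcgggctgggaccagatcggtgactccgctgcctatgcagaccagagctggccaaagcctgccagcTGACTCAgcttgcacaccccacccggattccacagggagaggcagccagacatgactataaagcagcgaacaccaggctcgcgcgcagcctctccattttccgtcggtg
Positions count from the start, with the first base before it at -1. The AP-1 letters span bases -35 to -29 in Mmp13 and -59 to -53 in Cryba2. The RUNX letters span -118 to -113 in Mmp13 and -206 to -201 in Cryba2. Both strands were searched in 32851 promoters of 300 bases, of which 7.81% held the AP-1 motif, 16.8% the RUNX motif and 1.42% both. Neither window held the SOX letters ACAATG or ACAAAG (in 28.6% of promoters), CRE letters TGACGTCA (1.79%), C/EBP letters TTNNGNAA (40.7%) or ETS letters CCGGAAG or CAGGAAG (20.9%). Of the 12 genes highest against WT, 8 had a promoter in the table, and 0 of these held the AP-1 motif, 0 the RUNX motif and 1 a SOX motif. A match describes letters in a window and not a bound site.

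Most cells at this level of Mmp13 and Cryba2 came from mutants. A sum of 15 or more per 10,000 was found in 810 kept mutant cells (10.9%) and 33 kept WT cells at day 13, and in 541 mutant cells (5.44%) and 8 WT cells at day 19. Among cells that passed the gates on Ptprc, Col2a1, Prg4 and bone genes, the share over the threshold was 8.51% (exact interval 7.54 to 9.56) in mutants and 0.385% in WT at day 13. At day 19 it was 4.301% (3.55 to 5.16) in mutants and 0.201% in WT. The WT cells that passed the whole rule numbered 17 and 2 at days 13 and 19. The 17 had a median of only 2909 UMIs, against 12669.5 in the 260 mutant cells of that age. The sum rested on a median of 52.5 and 52 UMIs per mutant cell at the 2 ages, and on fewer than 5 UMIs in 14 and 3 of the cells.

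The Col2a1 gate divides a broader set of cells. Without a Col2a1 minimum, 624 and 355 mutant cells would have passed, since 364 and 244 cells met every other condition with Col2a1 under 50 per 10,000 (a set described after its values were seen). The Mmp13/Cryba2 cells held 25.4% and 11.2% of all Mmp13 UMIs of kept mutant cells at days 13 and 19, the cells with less Col2a1 35.4% and 35.6%, and cells with Bglap, Ifitm5 and Dmp1 at 25 or more 24.6% and 34.7%. Of Cryba2 UMIs the Mmp13/Cryba2 cells held 41.3% and 35.2%. The 2 sets on either side of the Col2a1 gate differed in few genes: of 7391 measured genes, 47 (0.636%) were 2-fold or more higher and 31 (0.419%) lower in the Mmp13/Cryba2 cells at both ages. Htra1 was at 22.9 and 19.1 per 10,000 in the Mmp13/Cryba2 cells and at 27.5 and 30.4 in the cells with less Col2a1. Podnl1 was at 0.805 and 0.760 in the Mmp13/Cryba2 cells and at 1.12 and 1.32 in those with less Col2a1, and Postn at 2.57 and 3.96 against 7.34 and 8.75.

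Mmp13 was at 39.1 UMIs per 10,000 (38.4 to 39.7) at day 13 and 27.0 (26.1 to 27.9) at day 19 in the Mmp13/Cryba2 cells. In WT cells with Col2a1 at 100 or more, 4696 and 1144 cells, it was at 0.0690 and 0.0333. In the other gated mutant Col2a1 cells, 2795 and 2470 cells, it was at 0.974 and 0.543. Those last values were below the 1.58 and 1.43 found in mutant Ptprc cells (2 or more UMIs). The median Ptprc cell held no Mmp13 and the highest 48.5 and 199 per 10,000, and whether free RNA or mixed droplets gave these UMIs was not tested. Cryba2 was at 19.3 and 28.2 in the Mmp13/Cryba2 cells, 0.153 and 0.234 in other mutant Col2a1 cells and 0.0375 and 0.0333 in WT cells. In mutant Ptprc cells Cryba2 was at 0.243 and 0.0950. The rule sets the Mmp13/Cryba2 cells and other gated mutant cells apart by the sum of both genes, so these levels describe the choice.

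The other markers of the state were not in the rule, but were listed as its markers with earlier results of these data known. Their levels are thus a description too. Htra1 was at 22.9 and 19.1 per 10,000 in the Mmp13/Cryba2 cells at days 13 and 19, at 6.28 and 5.59 in other mutant Col2a1 cells and at 1.81 and 2.08 in WT cells. Its log2 ratio to WT was 3.66 (3.62 to 3.70) and 3.20 (3.13 to 3.27). Olfml2b was at 3.28 and 3.45 in the Mmp13/Cryba2 cells, 1.28 and 1.03 in other mutant Col2a1 cells and 0.0952 and 0.117 in WT cells. Podnl1 was at 0.805 and 0.760 in the Mmp13/Cryba2 cells, 0.103 and 0.142 in other mutant Col2a1 cells and 0.0183 and 0.0249 in WT cells. Across these groups the Mmp13/Cryba2 cells were highest for each gene and WT cells lowest at both ages, with other mutant Col2a1 cells between. Htra1 and Podnl1 were higher still in the cells with less Col2a1, as given above. In mutant Ptprc cells Htra1 was at 1.09 and 0.870, Olfml2b at 0.372 and 0.382, and Podnl1 at 0.0461 and 0.0205.

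**Figure D1:**
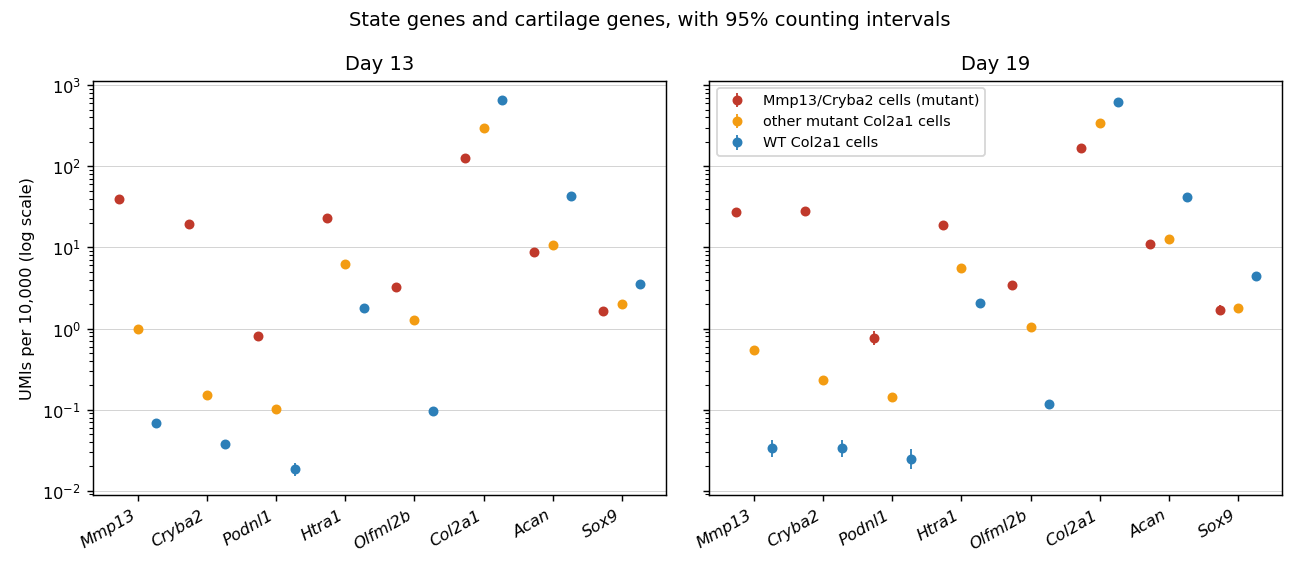
Level in UMIs per 10,000 (log scale) of the 5 state genes and of Col2a1, Acan and Sox9, in the Mmp13/Cryba2 cells, other mutant Col2a1 cells and WT Col2a1 cells at each age, with bars for exact 95% counting intervals. Htra1 runs from 22.9 over 6.28 to 1.81 across the 3 groups at day 13, while Acan runs the other way, from 8.74 over 10.8 to 43.2.

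Sox9 was at 1.63 and 1.70 per 10,000 in the Mmp13/Cryba2 cells, 2.01 and 1.77 in other mutant Col2a1 cells, and 3.55 and 4.48 in WT cells. The log2 ratio to WT was -1.12 (-1.24 to -1.0) and -1.40 (-1.59 to -1.21). These 3′ counts can come from transcripts outside the floxed exons, so the level of Sox9 checks neither the labels nor how far the deletion went. Sox8, a close relative, was at 0.0418 and 0.0369 in the Mmp13/Cryba2 cells, 0.115 and 0.133 in other mutant Col2a1 cells and 0.321 and 0.242 in WT cells. Sox5 and Sox6, partners of Sox9 on cartilage genes, did not reach 2-fold: Sox5 was at 0.997 and 1.17 in the Mmp13/Cryba2 cells against 1.52 and 1.92 in WT cells, and Sox6 at 1.07 and 0.945 against 0.653 and 0.773. Sox4, a SOX factor of progenitors, was higher, at 3.14 and 2.07 in the Mmp13/Cryba2 cells, 1.32 and 0.950 in other mutant Col2a1 cells and 0.424 and 0.483 in WT cells. Of 6 SOX genes, Sox4 was thus 2-fold or more higher and Sox9 and Sox8 lower than in WT at both ages.

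Across all genes with 0.1 or more UMIs per 10,000 in the higher group at both ages, 652 of 7291 (8.94%) were 2-fold or more higher in the Mmp13/Cryba2 cells than in WT Col2a1 cells at both ages. A further 260 (3.57%) were 2-fold or more lower. Over every measured gene the log2 ratio had a median of 0.25 and 0.07 at days 13 and 19. Against other mutant Col2a1 cells 176 of 7327 genes (2.4%) were higher and 123 (1.68%) lower. Only these folds are counted, because with 1 library per group there is no test, and the Mmp13/Cryba2 cells of these libraries were used by the rule. A median-ratio scaling lowers all log2 ratios to WT by 0.21 at day 13 and 0.04 at day 19.

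Among the genes highest over WT were Adam23, Col13a1 and Tnn. Adam23, a membrane protein that binds integrins, was at 0.707 and 0.746 per 10,000 in the Mmp13/Cryba2 cells and 0.00709 and 0.00751 in WT cells, log2 ratios of 6.64 and 6.63. The transmembrane collagen gene Col13a1 was at 1.38 and 1.32 against 0.0145 and 0.0268 in WT. Tnn, tenascin-W of periosteum and forming bone, was at 1.31 and 2.04 against 0.0165 and 0.0432 in WT. Both Col13a1 and Tnn were also higher in other mutant Col2a1 cells than in WT, at 0.436 and 0.331 for Col13a1 and 0.934 and 0.721 for Tnn. Other leading genes were Postn, Ggt5, Itga11, Prrx2, Sh3pxd2b and Angptl4, beside the markers Podnl1 and Olfml2b. Itga11, a subunit of a collagen-binding integrin, was at 0.626 and 0.539 against 0.0274 and 0.0188 in WT. Sh3pxd2b, a scaffold of invadopodia, the protrusions where proteases cut matrix, was at 1.48 and 1.49 against 0.0709 and 0.0671 in WT.

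The 12 genes lowest against WT held Ucma and Sfrp5 of the resting zone list and Matn1, Prelp, Cytl1 and again Ucma of the cartilage matrix list. Il17b, an interleukin-17 family gene, had 1 UMI in each library's Mmp13/Cryba2 cells, a level of 0.00278 and 0.00738 per 10,000, against 2.18 and 3.58 in WT cells, and 0.0582 and 0.0247 in other mutant Col2a1 cells. With 1 UMI the log2 ratio to WT is loosely bounded, at -9.62 (-14.92 to -7.14) and -8.92 (-14.23 to -6.44). C1qtnf3, a secreted C1q-domain protein of cartilage, was at 0.0557 and 0.140 in the Mmp13/Cryba2 cells and 4.67 and 7.52 in WT cells. Ucma, a Gla-rich protein of resting cartilage, was at 0.754 and 0.945 in the Mmp13/Cryba2 cells, 4.97 and 7.70 in other mutant Col2a1 cells and 20.5 and 20.7 in WT cells. Matn1, matrilin-1 of epiphyseal cartilage, was at 0.493 and 0.369 in the Mmp13/Cryba2 cells, 2.63 and 2.28 in other mutant Col2a1 cells and 19.1 and 5.70 in WT cells. The others were Cytl1, Prelp, Lbhd2, Car12, Sfrp5, Ncmap, Ppa1 and Meltf, with day-13 log2 ratios between -3.72 for Ppa1 and -5.65 for Ncmap.

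Cartilage matrix genes were lower as a group. Of 20 measured genes, 15 were 2-fold or more lower than in WT at both ages and 0 were higher, with medians of -2.21 and -1.90 (log2). The 15 and the medians include Col2a1, which chose the cells, with a higher minimum in WT cells than in the Mmp13/Cryba2 cells. The ratio of Col2a1 to WT is thus partly set by the choice. Acan, the aggrecan core protein, was at 8.74 and 11.1 per 10,000 in the Mmp13/Cryba2 cells, 10.8 and 12.7 in other mutant Col2a1 cells and 43.2 and 42.2 in WT cells. Acan in the Mmp13/Cryba2 cells was thus close to its level in other mutant cells, with log2 ratios of -0.30 (-0.36 to -0.25) and -0.19 (-0.27 to -0.12), while WT cells held several times more. In mutant Ptprc cells Acan was at 0.775 and 0.662 and Col2a1 at 12.2 and 8.88. Hapln1, the link protein, was at 5.03 and 7.65 in the Mmp13/Cryba2 cells, 11.2 and 12.9 in other mutant Col2a1 cells and 35.0 and 39.3 in WT cells. Col2a1, whose level the rule bounds from below, was at 127 and 166 in the Mmp13/Cryba2 cells, 295 and 343 in other mutant Col2a1 cells and 657 and 625 in WT cells. Comp, the cartilage oligomeric protein, stood apart at 36.9 and 65.4 against 40.1 and 43.5 in WT cells. Chad, Epyc, Fmod, Matn4 and Comp did not reach 2-fold at both ages. Against other mutant Col2a1 cells 7 of 20 were lower: Col2a1, Matn1, Matn3, Prelp, Cnmd, Ucma and Cytl1. Col2a1 is counted here too, although it chose both sets of mutant cells, with the same minimum. Genes that sulfate and extend the glycosaminoglycan chains were lower too, 6 of 10 against WT with medians of -1.25 and -1.39, among them the sulfate transporter gene Slc26a2 at 0.248 and 0.399 against 1.28 and 1.42 in WT cells. None of 9 measured sulfation genes passed 2-fold against other mutant Col2a1 cells, where 2.4% of all genes were higher and 1.68% lower.

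Fibrous matrix genes were higher, 15 of 17 against WT with medians of 1.89 and 1.94 and 0 lower. Other mutant Col2a1 cells had 13 of the 17 higher than WT. Against those cells 2 (Fn1 and Postn) were higher and 1 (Eln, elastin) lower in the Mmp13/Cryba2 cells, with medians of 0.16 and 0.31. Fn1, fibronectin, was at 35.8 and 37.6 per 10,000 in the Mmp13/Cryba2 cells, 16.3 and 18.3 in other mutant Col2a1 cells and 8.84 and 9.81 in WT cells. Postn, periostin of periosteum and ligament, was at 2.57 and 3.96 in the Mmp13/Cryba2 cells, 1.01 and 0.722 in other mutant Col2a1 cells and 0.0544 and 0.0146 in WT cells. Col1a1 was at 78.0 and 63.3 in the Mmp13/Cryba2 cells, 70.1 and 44.6 in other mutant Col2a1 cells and 21.02 and 11.3 in WT cells, and at 26.0 and 16.5 in mutant Ptprc cells. The 8 fibroblast and tendon markers summed to 1.74 and 1.54 in the Mmp13/Cryba2 cells and to 1.40 and 1.16 in other mutant Col2a1 cells. Their sums were 0.487 and 0.329 in WT cells and 0.929 and 0.878 in mutant Ptprc cells. Of 3 measured against WT, with medians of 3.24 and 2.50, Ly6a and Pdgfra were 2-fold or more higher at both ages. Tnmd was lower at day 13 and higher at day 19, with log2 ratios of -1.29 and 2.23. Against other mutant Col2a1 cells 0 of 5 measured passed 2-fold. Pi16 was at 0 at day 19, and the part of such cells in the fibrous matrix values was not tested.

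Proteases of matrix breakdown were higher as a group. Of 9 measured aggrecanases and serine or cysteine proteases, 6 were higher than in WT and 0 lower, with medians of 2.62 and 1.70, and 4 were higher than in other mutant Col2a1 cells. Adamts4, an aggrecanase, was at 0.256 and 0.236 per 10,000 in the Mmp13/Cryba2 cells, 0.115 and 0.0985 in other mutant Col2a1 cells and 0.0119 and 0.0160 in WT cells. Adamts5, the other main aggrecanase of cartilage, was at 0.306 and 0.192 in the Mmp13/Cryba2 cells, 0.0755 and 0.0604 in other mutant Col2a1 cells and 0.0350 and 0.0592 in WT cells. Mmp14, the membrane-anchored collagenase that can activate pro-MMP13, was at 7.10 and 6.97 in the Mmp13/Cryba2 cells, 1.84 and 1.42 in other mutant Col2a1 cells and 0.727 and 0.906 in WT cells. Mmp14, Mmp3 and Adam12 were the 3 of 6 measured metalloproteinases higher than in WT, Mmp13 itself being left out of that list. Mmp3, stromelysin, was at 0.187 and 0.952 in the Mmp13/Cryba2 cells, and at 0.265 and 0.414 in other mutant Col2a1 cells, so its direction between the 2 sets of mutant cells differed by age. Inhibitors were higher in the same cells, 5 of 9 against WT, among them Timp1, Timp2, Serpine2 and Spock1, and 0 of 9 against other mutant Col2a1 cells. Of all genes 2.4% were higher than in other mutant Col2a1 cells, so 0 of 9 is near that share. Timp2 was at 11.4 and 10.6 in the Mmp13/Cryba2 cells, 6.04 and 6.25 in other mutant Col2a1 cells and 2.49 and 2.45 in WT cells.

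Of 14 measured factors known to act on Mmp13, Runx2, Fosl2, Junb, Cebpb and Nfkb1 were 2-fold or more higher than in WT at both ages, and 0 were lower, with medians of 0.39 and 0.50. Runx2, the master factor of hypertrophy and bone formation, was the one of them also higher than in other mutant Col2a1 cells. It was at 1.53 and 1.37 per 10,000 in the Mmp13/Cryba2 cells, 0.676 and 0.522 in other mutant Col2a1 cells and 0.492 and 0.468 in WT cells. Of the AP-1 genes, Junb was at 8.44 and 6.61 in the Mmp13/Cryba2 cells against 2.55 and 2.70 in WT cells and Fosl2 at 1.14 and 1.01 against 0.378 and 0.319. Fos was at 5.09 and 4.65 in the Mmp13/Cryba2 cells against 6.21 and 5.96 in WT cells, and Jun at 3.49 and 4.70 against 3.11 and 3.98. Junb and Fosl2 were at 14.6 and 15.2 and at 1.23 and 1.19 in mutant Ptprc cells, so blood cells carry them at levels as high. Of 10 stress and immediate early genes 3 (Ier2, Ier3 and Hspa1b) were 2-fold or more higher than in WT at both ages, with medians of 0.66 and 0.53, and their part in these values was not tested.

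Of a list of signals to osteoclasts and vessels, Tnfsf11, Csf1 and Angptl4 were 2-fold or more higher than in other mutant Col2a1 cells at both ages. Tnfsf11, which encodes RANKL, the cytokine that osteoclasts need to form, was at 0.189 and 0.162 per 10,000 in the Mmp13/Cryba2 cells, 0.0210 and 0.0258 in other mutant Col2a1 cells and 0.00445 and 0.00563 in WT cells. Csf1, the macrophage colony-stimulating factor, was at 1.15 and 0.605 in the Mmp13/Cryba2 cells, 0.283 and 0.258 in other mutant Col2a1 cells and 0.0663 and 0.0441 in WT cells. Angptl4, an angiopoietin-like protein that inhibits lipoprotein lipase, was at 0.741 and 0.709 in the Mmp13/Cryba2 cells, 0.209 and 0.182 in other mutant Col2a1 cells and 0.0337 and 0.0399 in WT cells. Vegfa, the vessel growth factor, did not reach 2-fold over other mutant cells at day 19, at 1.63 and 1.48 in the Mmp13/Cryba2 cells, 0.696 and 0.758 in other mutant Col2a1 cells and 0.484 and 0.493 in WT cells. Cnmd, chondromodulin, an inhibitor of vessel growth, was lower, at 4.60 and 5.90 in the Mmp13/Cryba2 cells, 10.6 and 12.6 in other mutant Col2a1 cells and 22.4 and 23.8 in WT cells. Of 7 measured genes of this list 4 were higher and 1 lower than in WT, and of 8 measured against other mutant cells 3 were higher and 2 lower. Ptgs2, the inducible cyclooxygenase, was at 1.17 and 1.39 in the Mmp13/Cryba2 cells, 0.293 and 0.336 in other mutant Col2a1 cells and 0.0728 and 0.0892 in WT cells, and at 0.311 and 0.403 in mutant Ptprc cells. Among 5 measured inflammatory mediators, of a list of 17, Ptgs2, Ptges and Cxcl1 were higher than in WT. Cxcl1 was at 0.763 and 0.827 in the Mmp13/Cryba2 cells and 0.713 and 0.975 in other mutant Col2a1 cells. Of 7 mediators measured against other mutant Col2a1 cells, 2 (Ptgs2 and Ptges) were higher and 2 (Cxcl12 and Lcn2) lower. The medians there were 0.10 and -0.33.

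**Figure D2:**
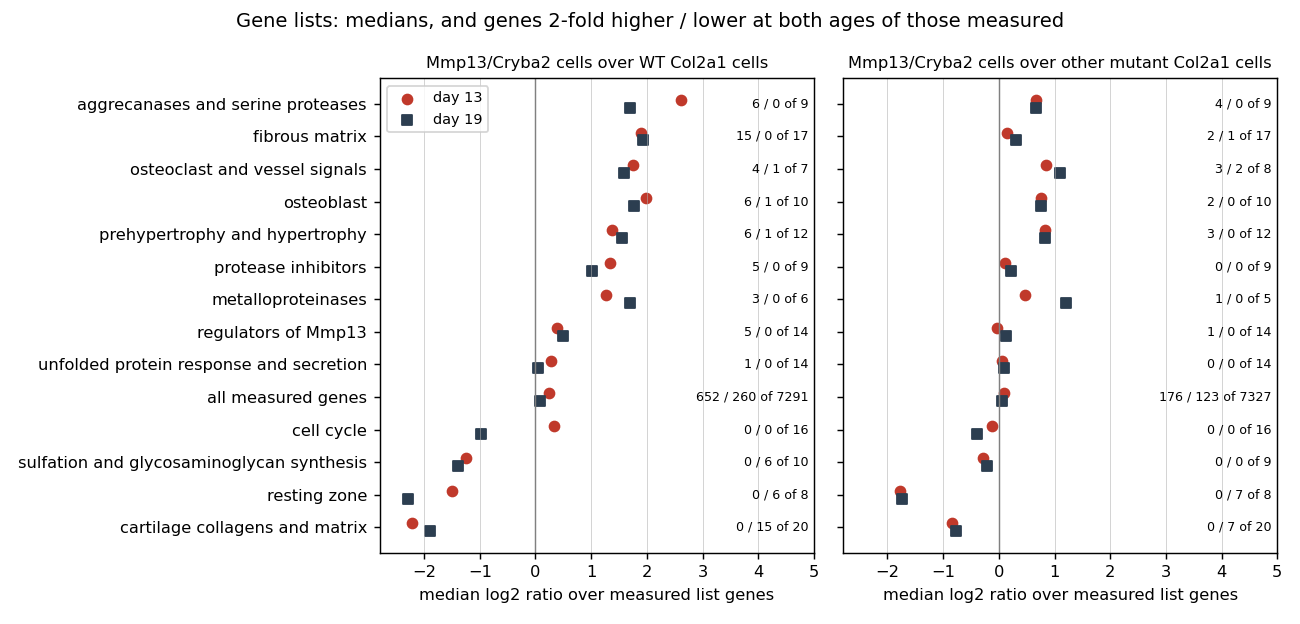
Median log2 ratio of gene lists in the Mmp13/Cryba2 cells over WT Col2a1 cells (left) and over other mutant Col2a1 cells (right) at days 13 and 19, with the numbers of genes 2-fold or more higher and lower at both ages of those measured. Fibrous matrix genes sit at 1.89 and 1.94 against WT and at 0.16 and 0.31 against other mutant cells, while resting zone genes lie at -1.51 and -2.28 against WT and -1.78 and -1.75 against other mutant cells.

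Resting zone genes were lower against both sets: 6 of 8 against WT, with medians of -1.51 and -2.28, and 7 of 8 against other mutant Col2a1 cells, with medians of -1.78 and -1.75. Gas1, a hedgehog co-receptor, was at 0.234 and 0.281 per 10,000 in the Mmp13/Cryba2 cells, 1.21 and 1.02 in other mutant Col2a1 cells and 0.586 and 1.39 in WT cells. Among the genes highest against other mutant Col2a1 cells were Podnl1, Spp1, Itga11, Sh3pxd2b, Svep1, Ptgs2 and Mmp14. The lowest were Msmp, Penk, Ucma, Matn1, C1qtnf3, Nrtn, Slurp1 and Barx1. Penk, proenkephalin, was at 0.345 and 0.281 in the Mmp13/Cryba2 cells, 2.33 and 3.07 in other mutant Col2a1 cells and 1.48 and 0.980 in WT cells. Of 10 crystallin genes other than Cryba2 only 3 were measured (Crybg3, Cryab and Cryz), and 0 of these were 2-fold higher than in WT, a count too small to set against the 8.94% of all genes. Cryab, a small heat shock protein, was at 1.03 and 0.768 in the Mmp13/Cryba2 cells, 2.23 and 2.06 in other mutant Col2a1 cells and 1.64 and 1.28 in WT cells.

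Hypertrophy and bone genes were unevenly spread among the cells. Of 12 measured hypertrophy genes 6 were higher than in WT and 1 (Runx3) lower, with medians of 1.37 and 1.56. The 6 were Runx2, Sp7, Alpl, Ibsp, Spp1 and Vegfa. Col10a1, Ihh, Pth1r, Panx3 and Mef2c did not pass 2-fold in the same direction at both ages. Of 10 osteoblast genes 6 were higher and 1 lower (Bglap2, which a near-identical copy makes uncertain). That copy, Bglap, is bounded by the rule in these cells and not in the WT cells. Alpl, Ibsp and Spp1 are counted as higher in both lists. Against other mutant Col2a1 cells 3 of 12 hypertrophy genes (Runx2, Ibsp and Spp1) were higher, beside 2.4% of all genes. Of 10 osteoblast genes 2 (Ibsp and Spp1) were higher than in other mutant Col2a1 cells. Ibsp, bone sialoprotein, was at 142 and 78.7 per 10,000 in the Mmp13/Cryba2 cells, 35.5 and 21.02 in other mutant Col2a1 cells and 4.33 and 12.2 in WT cells. The median Mmp13/Cryba2 cell, however, held only 21.2 and 2.69, and mutant Ptprc cells were at 11.0 and 6.75. Cells with Ibsp at 50 or more, 103 of 260 (39.6%) and 28 of 111 (25.2%), held 95.4% and 95.8% of the Ibsp UMIs of all Mmp13/Cryba2 cells. They held 79.2% and 92.9% of the Spp1 UMIs, 69.6% and 96.0% of the Col10a1 UMIs, 54.4% and 54.6% of the Mmp13 UMIs and 22.4% and 7.62% of the Cryba2 UMIs. Without them the Ibsp log2 ratio to WT was -1.35 at day 19, against 2.69 with them, and that of Spp1 was -0.08 against 3.21. The medians of the hypertrophy and osteoblast lists were then below 0 at day 19, at -0.05 and -0.35. Cells with less Col2a1 had Ibsp at 50 or more in 30.2% and 20.1%, and cells gated on bone genes in 72.9% and 56.8%.

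The share of Mmp13 in the sum varied among the cells. Since the rule put a threshold on that sum, a cell low in one gene had to be high in the other, and the split is a description. Both transcripts were found in 135 of 260 and 63 of 111 cells, Mmp13 alone in 123 and 35, and Cryba2 alone in 2 and 13. With Mmp13 at 80% or more of the sum a cell was called Mmp13-led, and with Mmp13 at 20% or less Cryba2-led. There were 171 and 49 Mmp13-led, 54 and 25 mixed, and 35 and 37 Cryba2-led cells, so the Mmp13-led share was 65.8% at day 13 and 44.1% at day 19 and the Cryba2-led share 13.5% and 33.3%. Median UMIs were 11987 and 9782 in Mmp13-led, 13521 and 11473 in mixed, and 13196 and 11272 in Cryba2-led cells.

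**Figure D3:**
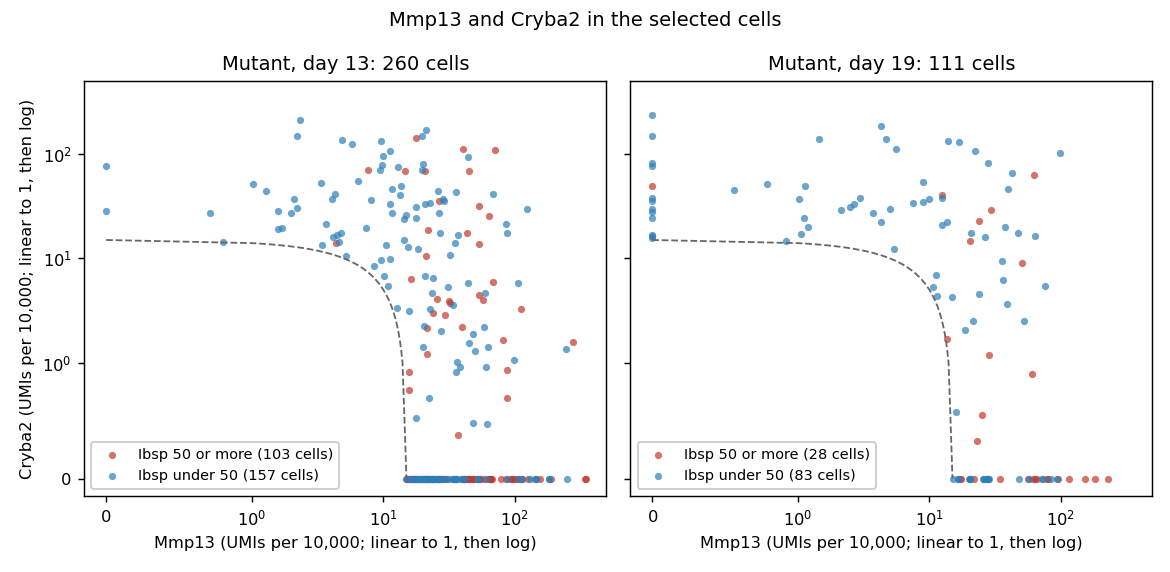
Mmp13 (x axis) and Cryba2 (y axis) in each of the 260 and 111 Mmp13/Cryba2 cells, in UMIs per 10,000 (linear to 1, then log), with cells at Ibsp 50 or more in red and the threshold sum of 15 as a dashed line. The Cryba2-high, Mmp13-low corner holds few cells with high Ibsp. At day 13 the cells with high Ibsp lie along the whole range of Mmp13 above the threshold, from near the dashed line to the highest values. At day 19 they lean toward higher Mmp13.

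Ibsp, Spp1 and Col10a1 were higher in Mmp13-led than in Cryba2-led cells at both ages, through part of the Mmp13-led cells. Ibsp was at 50 or more in 50.9% and 44.9% of Mmp13-led, in 13 of 54 and 5 of 25 mixed cells, and in 8.57% and 2.70% of Cryba2-led cells. Between the subgroups 155 of 7291 genes (2.13%) were 2-fold or more higher and 72 (0.988%) lower in Mmp13-led than in Cryba2-led cells at both ages. Ibsp was at 208 and 156 per 10,000 in Mmp13-led, 55.8 and 38.3 in mixed, and 10.7 and 7.37 in Cryba2-led cells. The median Mmp13-led cell held 66.8 and 11.0, and the median Cryba2-led cell 2.19 and 2.22. Mutant Ptprc cells pooled to 11.0 and 6.75, with medians of 3.13 and 0, and 4 of 528 and 9 of 1378 of them were at 50 or more. Spp1, osteopontin, was at 81.5 and 101 in Mmp13-led, 9.49 and 14.0 in mixed, and 7.08 and 3.57 in Cryba2-led cells, against 4.13 and 6.82 in mutant Ptprc cells. Col10a1, the collagen of hypertrophic cartilage, was at 8.97 and 28.0 in Mmp13-led, 0.124 and 1.38 in mixed, and 0.276 and 0.0452 in Cryba2-led cells. Those values rest on few cells: 8 of 171 and 5 of 49 Mmp13-led cells, with Col10a1 at 30 or more, held 97.7% and 98.8% of the Col10a1 UMIs of the subgroup, and its median was 0 at both ages (a minimum chosen after the values were seen). Hpgd, a prostaglandin dehydrogenase, was at 1.05 and 2.60 in Mmp13-led against 0.0861 and 0.113 in Cryba2-led cells, and the convertase gene Pcsk6 at 0.852 and 1.91 against 0.0861 and 0.0226. Mutant Ptprc cells had Hpgd at 0.695 and 0.493. Ptgs2 was at 1.46 and 1.64 in Mmp13-led against 0.172 and 0.407 in Cryba2-led cells.

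Genes on the other side were Tst, Pcp4, Tgfb3, Cdkn1c and C4b. Tgfb3, a ligand of the TGF-beta family, was at 0.467 and 0.448 per 10,000 in Mmp13-led, 0.646 and 0.902 in mixed, and 1.24 and 1.09 in Cryba2-led cells. Cdkn1c, the cyclin-dependent kinase inhibitor p57, was at 4.19 and 3.21 in Mmp13-led, 4.83 and 3.07 in mixed, and 10.9 and 7.62 in Cryba2-led cells. C4b, a complement component, was at 1.09 and 1.09 in Mmp13-led and 3.14 and 2.46 in Cryba2-led cells. Pcp4, which encodes a calmodulin-binding peptide, was at 0.172 and 0.0517 in Mmp13-led, 0.517 and 0.565 in Cryba2-led and 1.06 and 1.41 in WT Col2a1 cells.

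Markers of the state differed less across the same subgroups. Olfml2b was at 3.39 and 3.09 per 10,000 in Mmp13-led, 3.54 and 3.70 in mixed, and 2.53 and 3.75 in Cryba2-led cells. Podnl1 was at 0.906 and 0.811 in Mmp13-led, 0.671 and 0.842 in mixed, and 0.603 and 0.633 in Cryba2-led cells. Htra1 was at 22.6 and 14.2 in Mmp13-led, 22.5 and 23.2 in mixed, and 24.2 and 22.4 in Cryba2-led cells. Runx2 was at 1.46 and 1.501 in Mmp13-led, 1.81 and 1.44 in mixed, and 1.36 and 1.13 in Cryba2-led cells, each of them above the 0.676 and 0.522 of other mutant Col2a1 cells. Mmp14 was at 7.56 and 5.21 in Mmp13-led, 6.82 and 10.9 in mixed, and 5.74 and 6.33 in Cryba2-led cells. Col2a1 was at 129 and 170 in Mmp13-led and 125 and 182 in Cryba2-led cells.

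**Figure D4:**
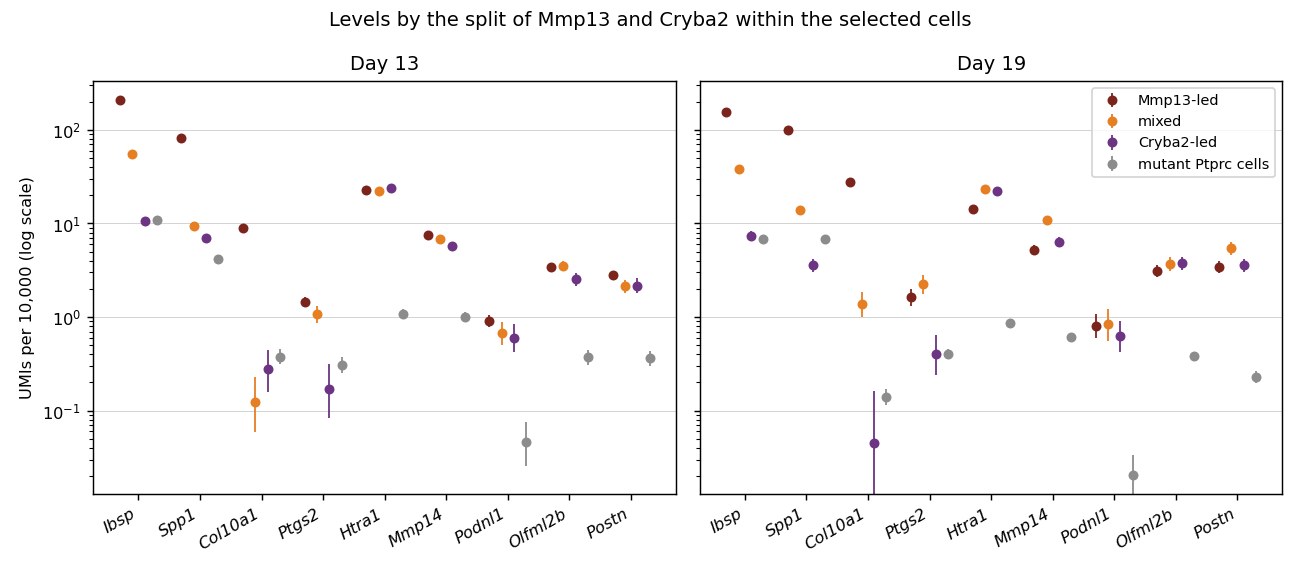
Level in UMIs per 10,000 (log scale) of 9 genes in Mmp13-led, mixed and Cryba2-led cells and in mutant Ptprc cells, with exact 95% counting intervals. Ibsp and Spp1 step down from Mmp13-led over mixed to Cryba2-led cells, Ibsp to near the pooled level of Ptprc cells in grey. Htra1, Mmp14, Podnl1, Olfml2b and Postn stay above the level of Ptprc cells in every subgroup. Col10a1 is highest in Mmp13-led cells, mostly through 8 of 171 cells at day 13 and 5 of 49 at day 19.

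WT hypertrophic chondrocytes, taken as WT cells with Col10a1 at 100 or more (63 and 9 cells), are the nearest normal cells with Mmp13 in the textbook. Mmp13 was at 39.1 and 27.0 per 10,000 in the Mmp13/Cryba2 cells and at 0.733 and 0.0286 in those WT cells, the second from 1 UMI. Htra1 was at 22.9 and 19.1 in the Mmp13/Cryba2 cells and 1.34 and 0.486 in the WT hypertrophic cells. Spp1 was at 53.3 and 47.7 against 26.3 and 22.8, and Ibsp at 142 and 78.7 against 12.8 and 18.1, all pooled over cells. Per cell the order turned at day 19: the median for Ibsp was 21.2 and 2.69 in the Mmp13/Cryba2 cells against 2.94 and 12.2 in WT hypertrophic cells, and for Spp1 6.44 and 2.26 against 0.958 and 2.51. Mmp14 was at 7.10 and 6.97 in the Mmp13/Cryba2 cells and 0.321 and 0.372 in WT hypertrophic cells. Whether later hypertrophic stages were captured in WT was not tested. Among mutant cells of day 13, 24 met the same minimum of Col10a1, some of them Mmp13/Cryba2 cells as well. Their medians were 46.8 for Ibsp, 146 for Spp1, 1.61 for Htra1 and 2.91 for Mmp13 (upper quartile 42.0). The Mmp13/Cryba2 cells of that day had medians of 21.2, 6.44, 17.5 and 24.5. High Ibsp and Spp1 are thus not particular to the Mmp13/Cryba2 cells.

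Cells with Myoc and Pi15 (164 and 235 mutant cells) are another group of mutant chondrocytes, and 4 and 1 cells met both rules. That is 1.54% and 0.901% of the Mmp13/Cryba2 cells and 2.44% and 0.426% of the Myoc and Pi15 cells. Against these cells 361 of 7344 genes (4.92%) were 2-fold or more higher in the Mmp13/Cryba2 cells at both ages and 217 (2.95%) lower. Myoc, myocilin, was at 0.752 and 0.568 per 10,000 in the Mmp13/Cryba2 cells and, by the rule that chose them, at 23.0 and 28.02 in the Myoc and Pi15 cells. Mmp14 was at 7.10 and 6.97 in the Mmp13/Cryba2 cells and 1.43 and 0.919 in the Myoc and Pi15 cells. Podnl1 was at 0.805 and 0.760 against 0.0791 and 0.0494, and Htra1 at 22.9 and 19.1 against 4.72 and 4.54. Prrx2, a limb mesenchyme homeobox factor, differed less, at 1.61 and 1.83 against 0.939 and 0.787.

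The levels of Mmp13 and Cryba2 at the 2 ages, given above, are those of genes the rule used. Among genes not in the rule, leaving out those that differed as much or more between the ages in WT Col2a1 cells, Car2, Mmp3, Matn3, Krtap17-1 and Loxl4 were highest at day 19 relative to day 13. Matn3, matrilin-3, was at 1.88 per 10,000 at day 19 and 0.451 at day 13 in the Mmp13/Cryba2 cells, against 13.8 and 12.9 in WT cells of the same ages. Mmp3 was at 0.952 at day 19 and 0.187 at day 13, with 0.130 and 0.0276 in WT cells, so WT cells differed by nearly as much. Sfrp2, Dio2, Wisp2, Cemip and S100a9 were lowest. Wisp2, a matricellular CCN gene, was at 0.362 at day 19 and 1.26 at day 13 in the Mmp13/Cryba2 cells, and at 0.0606 and 0.0627 in WT cells. Sfrp2, a secreted Wnt antagonist, was at 0.170 at day 19 and 0.938 at day 13 in the Mmp13/Cryba2 cells, against 0.185 and 0.201 in WT cells. S100a9, a neutrophil gene, was at 1.53 at day 19 and 4.13 at day 13 in the Mmp13/Cryba2 cells, and at 6.66 and 1.73 in WT cells. With 1 library per age the difference between ages and between mice cannot be told apart.

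Markers of other cell types were summed in the same cells. The summed level of 12 blood markers was 14.7 and 63.1 per 10,000 in the Mmp13/Cryba2 cells, of which Cd3e was at 0, against 31.4 and 118 in WT Col2a1 cells and 778 and 1222 in mutant Ptprc cells. The 7 endothelial markers summed to 0.189 and 0.236 in the Mmp13/Cryba2 cells, with Kdr at 0 at both ages, against 0.217 and 0.150 in WT Col2a1 cells. The 7 pericyte and smooth muscle markers summed to 0.562 and 0.502, against 0.498 and 0.338 in WT cells, and the 7 osteoclast markers to 0.921 and 0.938, with Dcstamp at 0, against 1.03 and 0.950. The 7 osteocyte markers summed to 1.71 and 1.76 in the Mmp13/Cryba2 cells, against 0.845 and 0.928 in WT Col2a1 cells. They summed to 1.27 and 1.49 in other mutant Col2a1 cells and to 2.70 and 2.65 in mutant Ptprc cells. Of these markers Sost, the sclerostin gene, was at 0 in the Mmp13/Cryba2 cells, and at day 19 also in WT Col2a1 cells. The osteoblast list, which includes genes the rule bounds, summed to 415 and 337 in the Mmp13/Cryba2 cells, 285 and 259.7 in other mutant Col2a1 cells, 224 and 275 in WT Col2a1 cells and 59.8 and 45.3 in mutant Ptprc cells. Cell cycle genes showed no 2-fold difference at both ages in any of 16 measured, with medians of 0.33 and -0.98 against WT. The 4 libraries held 70507107 to 76080803 UMIs in 8053 to 12714 barcodes, and the libraries shared 10 to 35 kept barcodes pairwise. A Scrublet score above 0.25 marked 4 and 2 of the Mmp13/Cryba2 cells.

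Just inside the threshold, 41 and 18 cells had a sum of Mmp13 and Cryba2 between 15 and 20 per 10,000, and 68 and 38 gated cells had one between 10 and 15. Htra1 was at 15.6 and 12.7 in the cells just inside and 16.3 and 15.04 in those just outside, and Podnl1 at 0.504 and 0.664 inside and 0.475 and 0.719 outside. Olfml2b was at 2.50 and 3.32 inside and 3.097 and 2.20 outside. Htra1, Podnl1 and Olfml2b thus show no step at the threshold. Ibsp and Spp1 did differ there, in opposite directions at the 2 ages. At day 13 Ibsp was at 190.7 inside and 54.03 outside and Spp1 at 71.7 and 33.3. At day 19 Ibsp was at 46.02 inside and 100.2 outside and Spp1 at 29.6 and 75.3.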

How the data were processed

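Epiphyses were digested with Liberase and cells captured with Chromium version 3 chemistry, per the labels' protocols, which call the mice neonate. The authors deposited unnormalized UMI counts for each barcode, from Cell Ranger (per the file headers, version 3.1.0). The submitters' processing notes also name the build mm10 and Seurat 3 with no role. Groups follow the sample labels, although the series' design text speaks of another age and an additional genotype. The lowest barcode held 500 UMIs.

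Cells kept per library were 7429 and 9942 in mutants and 6340 and 7241 in WT at days 13 and 19. Counts were summed over the cells of a group and divided by their total UMIs, times 10,000. As these are 3′ counts, levels are compared between cells and not between genes. Ratios have exact conditional binomial intervals, shares Clopper-Pearson intervals, and a 0 in a ratio was set to 3 counts per group. The interval procedure was run on simulated counts that held counting error only. With no spread between cells in them, they cannot show how the intervals hold for these cells. No p-value was computed. The members and gene lists were chosen with earlier results of these data known. Named genes are the rule's genes, the 5 markers, Sox9, Sox5, Sox6, Sox8, Acan, the 12 highest and 12 lowest against WT by the lesser of the 2 ages' log2 ratios at 0.5 or more per 10,000, 8 each way against other mutant cells, 5 each way between subgroups and between ages, and up to 4 per list. Some named genes are not reported here. Beyond that rule, list members and the levels in WT hypertrophic and in Myoc and Pi15 cells were chosen after their values were seen. Doublets were not removed: Scrublet (scanpy 1.11.5, Python 3.11.15) set an automatic threshold that marked 0 barcodes in 2 libraries, so it did not work there, and removal is an alternative. Other alternatives were the thresholds, filters, gates on WT, scaling and minimum level. Of 31053 features 31011 matched GENCODE M21. Intervals and floors cover counting error only.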

Additional observations from a re-analysis of the deposited data

Results flagged for a closer look

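For 7 genes the Mmp13/Cryba2 cells stood on opposite sides of WT Col2a1 cells at the 2 ages, with both counting intervals clear of 0. The difference between the ages was not tested, since each age has 1 library per genotype. Col10a1, the collagen of hypertrophic cartilage, had a log2 ratio of -0.35 at day 13 and 1.57 at day 19, the second -2.54 without the cells at Ibsp 50 or more, so that both ages then lay below WT. Car2, carbonic anhydrase 2, had -2.42 and 0.39, and Tnmd, tenomodulin of tendon, -1.29 and 2.23. S100a8 and S100a9, neutrophil genes, had 1.18 and 1.26 at day 13 and -2.36 and -2.12 at day 19. Their signs turned with the WT cells chosen, to -0.44 and -0.39 at day 13 with WT Col2a1 at 50 or more, and to 0.22 and 0.40 at day 19 with the gates of the Mmp13/Cryba2 cells also on WT cells. The mitosis genes Cenpf and Top2a had 0.38 and 0.35 at day 13 and -1.62 and -1.93 at day 19.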

How the results depend on the processing

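The counts of genes above or below WT or other mutant Col2a1 cells stayed within 1.5 times under the other thresholds of the Mmp13 and Cryba2 sum, the stricter filters on cells, doublet removal, the other gates on WT cells, the per-cell mean and the median-ratio scaling. The minimum level decides them. At a minimum of 0.5 per 10,000 there were 249 higher and 109 lower genes against WT and 75 and 42 against other mutant cells. With no minimum there were 5094 and 453 against WT and 4148 and 300 against other mutant cells. With Col2a1 at 100 or more, 111 and 54 cells passed at days 13 and 19. Further alternatives were added after the data were seen, a doublet score above 0.25, no Col2a1 minimum and cells with Ibsp under 50. Without a Col2a1 minimum, 624 and 355 cells passed, with 272 genes higher than in other mutant cells. With Ibsp under 50 per 10,000, 157 cells remained at day 13.

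Signs of single log2 ratios to WT reversed under 3 settings. Reversals were counted only for ratios of 2-fold or more with intervals clear of 0, and for list medians of that size. Sign changes of smaller ratios were not counted. Without the cells at Ibsp 50 or more, day-19 ratios became -2.54 for Col10a1, -1.35 for Ibsp, -0.56 for Loxl4 and -0.083 for Spp1. Under that setting ratios at days 13 and 19 were -0.59 and -0.53 for Hpgd, -0.90 and -0.14 for Krtap17-1 and -0.28 and -0.61 for Phex, and the day-19 medians of the hypertrophy and osteoblast lists were -0.050 and -0.35. With WT cells at Col2a1 50 or more, S100a8 and S100a9 had -0.44 and -0.39 at day 13. With the gates of the Mmp13/Cryba2 cells also on WT cells, the gating gene Prg4 (0.20 and 1.03), and Lyz2 (0.46 and 0.17), S100a8 (0.22) and S100a9 (0.40) at day 19 reversed, as did the day-19 median of the blood markers (0.17). The cause was not tested.

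Genes near 0.1 UMIs per 10,000 rest on few UMIs in the Mmp13/Cryba2 cells, fewest at day 19, which limits folds of low genes. No paired analysis was possible because each genotype and age has 1 library.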

Other observations

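Counts of other lists against WT stand beside 8.94% of all genes 2-fold or more higher and 3.57% lower. Those against other mutant Col2a1 cells stand beside 2.4% higher and 1.68% lower. A share near these is no result about a list. Of 6 measured genes of the IGF list, Igf1, Igfbp4, Igfbp5 and Igfbp6 were 2-fold or more higher than in WT Col2a1 cells at both ages, and 0 of 6 differed so from other mutant Col2a1 cells. Fgfr2, an FGF receptor of bone-forming cells, was at 1.91 and 1.95 per 10,000 in the Mmp13/Cryba2 cells, 1.06 and 0.952 in other mutant Col2a1 cells and 0.311 and 0.319 in WT cells. Fgfr3, the receptor that restrains growth plate chondrocytes, was at 0.774 and 0.974 in the Mmp13/Cryba2 cells and 1.58 and 1.44 in WT cells. Of 17 measured BMP and TGF-beta genes 6 were higher and 3 lower than in WT, and of 10 Wnt genes 1 was higher and 3 lower. Of 8 hedgehog and PTHrP genes only Hhip, a hedgehog inhibitor, passed, and it was lower than in WT.

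Limb mesenchyme factors Prrx1, Prrx2 and Twist1 were higher than in WT, 3 of 8 measured, and 0 of 9 measured were higher than in other mutant Col2a1 cells. Hk2, hexokinase 2, was at 3.01 and 3.88 per 10,000 in the Mmp13/Cryba2 cells, 1.32 and 1.77 in other mutant Col2a1 cells and 0.612 and 1.02 in WT cells, and was the 1 of 12 glycolysis and hypoxia genes higher than in other mutant cells. Of 14 genes of the unfolded protein response and secretion 1, Creb3l1, a factor of collagen secretion in osteoblasts, was higher than in WT, at 2.24 and 1.72 against 0.380 and 0.383. Of 11 collagen crosslinking genes Loxl1 was higher and Loxl3 lower. Of 9 small leucine-rich proteoglycans Lum and Podnl1 were higher and Prelp lower, and of 6 superficial zone genes Tppp3 and Dkk3 were higher. Of 4 measured olfactomedin-domain genes Olfml2b, Olfml3 and Myoc were higher, and of 4 osteocyte genes Phex and Capg. Without the cells at Ibsp 50 or more Phex was below WT, at log2 ratios of -0.28 and -0.61.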
